A study of Mus musculus with 31 samples.

Results

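ChREBP, encoded by Mlxipl, is one of a set of basic helix-loop-helix leucine zipper proteins that pair with each other and compete for the same DNA sites. The set described here held 10 genes: Mlxipl, its obligate partner Mlx, its paralogue Mlxip (MondoA), the hub protein gene Max, the activator gene Myc and the repressor genes Mxd1, Mxd4, Mxi1, Mnt and Mga. They were chosen by name, with earlier results of these data known. Every probe of the deposited table that carried one of these names was a member, which gave 10 of 23968 gene names and 21 of 36057 probes. A further Mlxip probe on the array, A_66_P102574, was well above background on 25 of 31 arrays and lay outside that table.

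RNA from the liver of male C57BL6/J mice was hybridised to 31 one-colour arrays, 1 array per sample. All mice, controls included, were fasted for 24 h and then refed for 18 h. They were refed the diet they had before the fast, and their drinking water held 20% glucose. ChREBPβ-deficient mice (ChREBPbeta_KO, n = 8) carried a germline CRISPR/Cas9 deletion of the exon specific to ChREBPβ and were compared with the WT mice of that line (ChREBPbeta_WT, n = 8). Total ChREBP-KO mice (ChREBPtotal_KO, n = 7), which are Mlxipl-null, were compared with the WT mice of their own line (ChREBPtotal_WT, n = 8). The third total ChREBP-KO replicate was not analysed here. The age of the mice is not given in the sources used here. The WT mice were 2 separate groups, so a difference between the lines cannot be told apart from differences in breeding. The p-values measure the spread between mice within groups, and not that between separately bred lines. This spread was pooled over all 4 groups in the model and taken from 1 line in the permutation tests. Fewer cells of a type and less RNA per cell cannot be told apart in whole liver.

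ChREBP and MLX bind as a pair to carbohydrate response elements, which are made of paired E-boxes, and switch on glycolytic and lipogenic genes when glucose is abundant. MAX pairs with MYC to activate, and with MXD, MNT or MGA proteins to repress, genes that carry E-boxes. MLX also pairs with MXD1, MXD4 and MNT, which joins the ChREBP and the MYC branches. ChREBPα and ChREBPβ arise from separate promoters of Mlxipl, and ChREBPβ lacks most of the low-glucose inhibitory part of ChREBPα.

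The RefSeq table (GRCm38.p6) gave 2 start sites for Mlxipl on the plus strand of chromosome 5, 17001 bases apart. The 250 bases before each start are printed because the lines differ in which Mlxipl transcripts they can make. The paper places the promoter of ChREBPβ upstream of the one known before. The 2 starts were not matched to isoforms here. Capitals mark CACGTG, the E-box.
Mlxipl, upstream start, chr5:135089640-135089889: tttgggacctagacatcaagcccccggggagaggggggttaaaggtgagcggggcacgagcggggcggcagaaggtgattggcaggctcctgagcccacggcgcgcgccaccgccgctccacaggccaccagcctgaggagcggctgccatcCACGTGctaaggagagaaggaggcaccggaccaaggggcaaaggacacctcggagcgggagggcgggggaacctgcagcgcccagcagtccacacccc
Mlxipl, downstream start, chr5:135106641-135106890: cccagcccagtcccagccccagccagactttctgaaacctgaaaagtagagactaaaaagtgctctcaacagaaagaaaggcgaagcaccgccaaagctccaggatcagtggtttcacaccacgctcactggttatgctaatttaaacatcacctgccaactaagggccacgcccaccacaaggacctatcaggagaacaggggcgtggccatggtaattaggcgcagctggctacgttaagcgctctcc

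The upstream window held 1 CACGTG, at -98 from its start, and the downstream window held none. Promoter windows (250 bases before to 50 after a start) were listed for 9 of the 10 genes, Myc excepted, with 12 windows in all. CACGTG, which reads alike on both strands, was present in 5 of the 12: in Max at -3, in Mlx at -40, in Mlxipl at -98, in Mnt at -123 and in Mxd4 at -219. Of all 32851 windows in the table, 7.15% held it. Neither a spaced pair of perfect E-boxes nor the degenerate carbohydrate response element, searched on both strands, occurred in a window of these genes, and the degenerate form was in 0.557% of all windows. The paper describes a carbohydrate response element in the exon specific to ChREBPβ. Windows end 50 bases after a start, so sequence beyond that was not searched. A match of letters is a description and not a binding site.

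The 3 Mlxipl probes lie on the plus strand of chromosome 5 in the mm9 positions of the array design. The upstream probe, A_55_P2728555, was designed on a cDNA described as having an apparent retained intron and is placed at chr5:135598483-135599113. The middle probe, A_55_P2119957, is at chr5:135613705-135613764, and the downstream probe, A_55_P2045158, is at chr5:135614195-135614252. The last pair were designed on the same RefSeq transcript, in which they begin at bases 3101 and 3591. Exon and intron borders in mm9 were not used here. No source used here places a probe in the exon deleted in the ChREBPβ line, so all 3 are read as Mlxipl signal and not as 1 isoform. Their sequences are shown, 30 bases of each, because they bear on how far each probe reads Mlxipl alone. Capitals mark the 16 bases shared with the most probes of other genes.
A_55_P2728555, bases 26 to 55: tcctctaCTACACAGAGAAACCCtgtctca
A_55_P2119957, bases 31 to 60: gcgtatgtggattttataaaaaagaaaatg
A_55_P2045158, bases 27 to 56: ggtgatgCACACCTTTAATCCCAgtacttg

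The upstream probe shared a stretch of 16 or more bases with 16 probes of other genes on the same strand, the longest stretch being 28 bases. The downstream probe shared one with 4 probes, the longest being 19 bases, and the middle probe shared one with none. The other 18 probes of the set shared none on the same strand, and 13.5% of the deposited probes shared one. With stretches of 20 or more bases the upstream probe shared with 8 probes and the other Mlxipl probes with none, against 4.62% of all probes. Signal from other transcripts on the upstream and downstream probes was not tested.

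Values below are log2 signals after quantile normalization, and a difference is KO minus WT of the same line unless said otherwise. Differences were tested by limma over all 36059 probes kept, and "called" means a Benjamini-Hochberg adjusted p under 0.05. In total ChREBP-KO liver 6 of the 21 probes were called higher and 5 lower, against 14.5% and 14.6% of all probes. In ChREBPβ-deficient liver 1 of the 21 probes was called, against 0.00277% of all probes, and it was called lower. That probe was the middle Mlxipl probe, and it was the 1 probe called among all 36059. The paper reports no significant expression change in liver lacking ChREBPβ. By PCR it found liver ChREBPα mRNA unchanged in these mice. The limits of the call are given further on. The median difference of the 21 probes was 0.11 in total ChREBP-KO mice, beside 0.0083 over all probes.

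Mlxipl differed by probe position. At the middle probe the signal of total ChREBP-KO mice ran from 13.89 through a median of 14.11 to 14.30, and that of their WT mice from 15.14 through 15.25 to 15.48. ChREBPβ-deficient mice ran from 14.40 through 14.64 to 14.84, and their WT mice from 14.88 through 15.06 to 15.33. Neither pair of groups overlapped at this probe, as was the case for 7.4% of all probes in the total line and 0.0222% in the ChREBPβ line.

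The middle probe was 2.23-fold lower in total ChREBP-KO mice, a log2 difference of -1.16 (SE 0.07, limma adjusted p = 8.05e-13). Signal thus remained in Mlxipl-null liver at this probe, which was well above background on all 31 arrays. In ChREBPβ-deficient mice it was 1.37-fold lower, a log2 difference of -0.45 (SE 0.07, limma adjusted p = 0.0152). This call was lost, with the direction unchanged, when any 1 of 4 mice was left out (adjusted p 0.0618 without ChREBPβ-deficient replicate 5, 0.0649 without its replicate 6, 0.0628 without ChREBPβ-line WT replicate 6 and 0.0675 without its replicate 7). The decrease was larger in the total line, by 0.70 on the log2 scale (SE 0.10, limma adjusted p of the difference = 1.11e-05). Total-line WT, ChREBPβ-line WT, ChREBPβ-deficient and total ChREBP-KO mice followed each other in falling order, each step exceeding the larger of the 2 neighbouring SDs.

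At the upstream probe total ChREBP-KO mice spanned 10.06 to 10.86, with a median of 10.48, and their WT mice 10.62 to 11.47, with a median of 11.03. ChREBPβ-deficient mice spanned 10.30 to 10.88 (median 10.52) and their WT mice 10.49 to 11.70 (median 10.96). The groups overlapped in both lines. The difference was -0.59 in total ChREBP-KO mice (SE 0.15, limma adjusted p = 0.00313). In ChREBPβ-deficient mice it was -0.46 (SE 0.15), which was not called over all probes (limma adjusted p = 0.909). By an exact two-sided permutation test of this probe, 1 of 6 such tests of Mlxipl probes, the adjusted p was 0.0028 in the total line and 0.0214 in the ChREBPβ line.

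The downstream probe gave values between 10.75 and 11.25 in every group. Its difference was -0.05 in total ChREBP-KO mice (95% interval -0.17 to 0.08) and -0.06 in ChREBPβ-deficient mice (95% interval -0.18 to 0.06), and neither was called. Groups that stood fully apart at the middle probe therefore overlapped at the neighbouring probe of the same transcript.

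**Figure D1:**
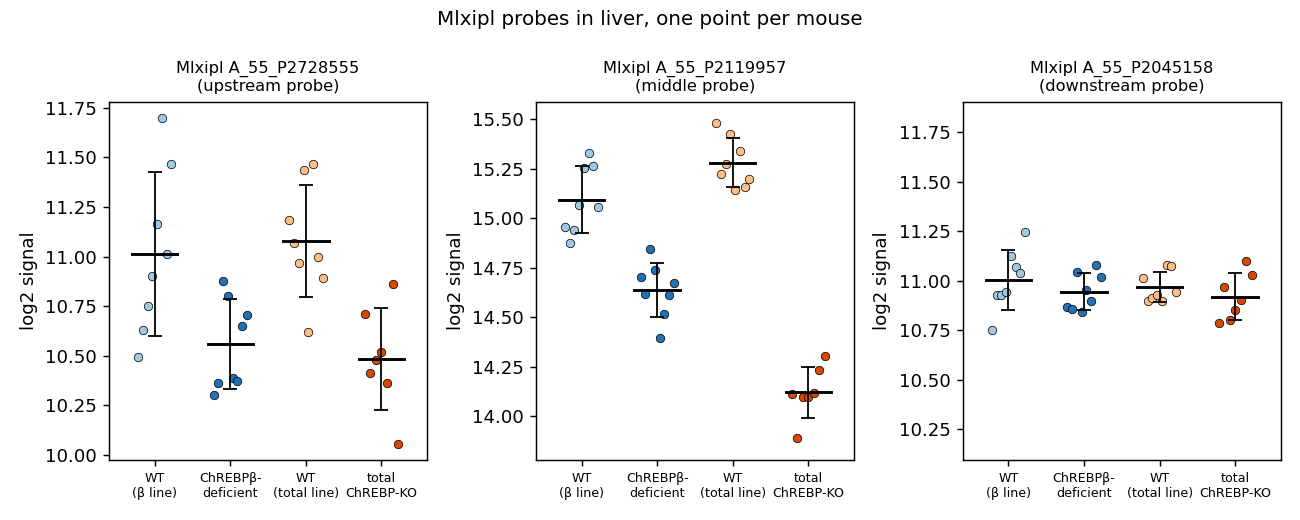
Log2 signal of the upstream, middle and downstream Mlxipl probes in each of the 31 arrays, by group, with points for mice and bars for the mean and SD. At the middle probe all total ChREBP-KO mice lie at or below 14.30 and all their WT mice at or above 15.14, while at the downstream probe the 4 groups share the range from 10.75 to 11.25.

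The probes were compared within each array, on the quantile-normalized values, so the differences are not free of the scaling between arrays. There were 3 pairs in 2 lines, hence 6 comparisons, and the smallest exact two-sided p that the design allows is 0.000155. In total ChREBP-KO mice the middle probe fell by 1.11 more than the downstream probe (exact permutation test, adjusted p = 0.000932). The upstream probe fell by 0.55 more than the downstream one (exact permutation, adjusted p = 0.00311) and by 0.57 less than the middle one (exact permutation, adjusted p = 0.00373). In ChREBPβ-deficient mice the middle probe fell by 0.40 more than the downstream probe (exact permutation, adjusted p = 0.0014), as did the upstream probe (exact permutation, adjusted p = 0.00578). Between the upstream and the middle probe the change in that line differed by -0.003 (exact permutation p = 0.98). Within scan days, of which there were 2, the middle probe differed by -1.30 and -0.99 in total ChREBP-KO mice and by -0.30 and -0.57 in ChREBPβ-deficient mice.

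The DNA-binding partner of ChREBP was not called in either line. Mlx probe A_51_P261443 (chr11:100952426-100952485, plus strand) had medians of 10.31 in total ChREBP-KO mice, 10.28 in their WT mice, 10.39 in ChREBPβ-deficient mice and 10.35 in theirs, with all 31 values between 10.08 and 10.59. Its differences were -0.04 (95% interval -0.19 to 0.11) and 0.05 (95% interval -0.09 to 0.20). The other Mlx probe, A_66_P117739, differed by -0.10 and -0.07.

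Mlxip, whose product MondoA is the second glucose-sensing partner of MLX, was called higher in total ChREBP-KO mice with all arrays, but not without 3 WT arrays of high exocrine pancreas signal described further on (0.21, limma adjusted p = 0.0865). At probe A_51_P246727 (chr5:123907398-123907457) these mice ran from 6.80 through 6.89 to 7.04 and their WT mice from 6.36 through 6.65 to 6.89. The difference was 0.27 (SE 0.08, limma adjusted p = 0.0123), and in ChREBPβ-deficient mice it was 0.03 (SE 0.08). The test of the difference between the lines was not passed (0.24, limma adjusted p = 0.156).

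Max and Myc were lower in total ChREBP-KO mice than in their WT mice, but there the WT mice of the total line were the group that stood apart. Max probe A_51_P188211 (chr12:78038283-78038342, minus strand) ran from 11.24 through 11.42 to 11.54 in total-line WT mice. Medians were 11.15 in total ChREBP-KO mice, 11.08 in ChREBPβ-deficient mice and 11.03 in ChREBPβ-line WT mice. The difference in total ChREBP-KO mice was -0.27 (SE 0.08, limma adjusted p = 0.0113). Between the WT groups it was 0.30, total line minus ChREBPβ line (limma adjusted p = 0.00638), and in ChREBPβ-deficient mice 0.003. With slide as a fixed block the KO difference was no longer called (-0.23, limma adjusted p = 0.109). The other Max probe, A_55_P2745603, differed by -0.12 in total ChREBP-KO mice and was not called.

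Both Myc probes were called lower in the total line. At A_52_P278549 (chr15:61820925-61820984, plus strand) these mice ran from 5.20 through 5.78 to 6.09 and their WT mice from 5.75 through 6.22 to 6.95, a difference of -0.51 (SE 0.16, limma adjusted p = 0.0127). At A_52_P108346 the difference was -0.72 (SE 0.27, limma adjusted p = 0.0454), with medians of 7.90 and 8.51. The ChREBPβ-line WT mice had medians of 5.56 and 7.42 at these probes, below those of total ChREBP-KO mice. WT mice of the total line exceeded those of the ChREBPβ line by 0.59 (limma adjusted p = 0.00633) and 0.89 (limma adjusted p = 0.0184). ChREBPβ-deficient mice differed from their WT mice by -0.12 and -0.33, neither called. The call at A_52_P108346 was lost in 14 of the 31 fits that left out 1 array, where the adjusted p reached 0.0985.

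The paralogues of Myc, taken from the list of related genes and not members of the set, showed much larger differences. Mycl probe A_52_P93284 ran from 4.77 through 5.05 to 5.39 in total ChREBP-KO mice and from 7.23 through 7.60 to 7.97 in their WT mice. Mycn probe A_55_P2796375 ran from 5.49 through 6.18 to 6.65 and from 7.86 through 8.49 to 9.04. No total ChREBP-KO mouse reached the lowest mouse of any other group at either probe. Mycl was 5.77-fold lower (log2 difference -2.53, SE 0.13, limma adjusted p = 3.94e-15) and Mycn 5.22-fold lower (-2.38, SE 0.22, limma adjusted p = 1.49e-09). In ChREBPβ-deficient mice the differences were 0.14 and 0.40 and were not called. The effects on both genes differed between the lines (limma adjusted p = 1.14e-11 and 2.44e-07). Total-line WT mice exceeded ChREBPβ-line WT mice at Mycl by 0.40 (limma adjusted p = 0.0215). At Mycn the WT groups differed by 0.55, which was not called (limma adjusted p = 0.0747). Both probes were well above background on all 31 arrays, while a second Mycl probe and the Mxd3 probes did not pass the filter. Background was not subtracted, and its median was 15 to 33 intensity units per array. Low signals, such as that of Mycl in total ChREBP-KO mice, therefore hold part of it, and the size of the Mycl fold carries this limit.

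**Figure D2:**
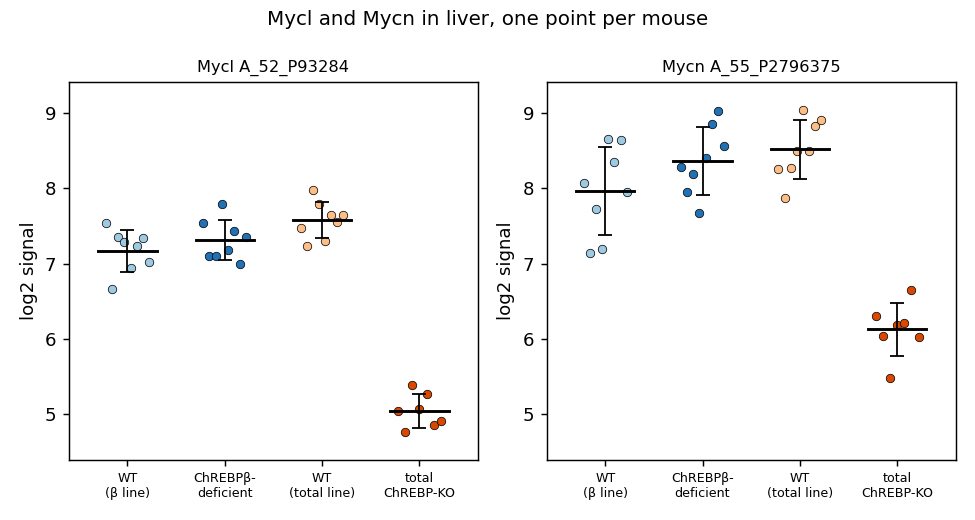
Log2 signal of the Mycl and Mycn probes in each array, by group, with points for mice and bars for the mean and SD. Total ChREBP-KO mice lie below every mouse of the other 3 groups at both probes, with highest values of 5.39 for Mycl and 6.65 for Mycn.

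Among the 5 repressor genes of the set, Mxd1, Mxd4 and Mxi1 were called higher in total ChREBP-KO mice and Mnt and Mga were not called, where 17.3% of all gene names were called higher. Mxd1 encodes a MAX and MLX partner that recruits the SIN3 corepressor. At probe A_51_P490795 (chr6:86597190-86597249, minus strand) total ChREBP-KO mice ran from 7.68 through 8.17 to 9.18 and their WT mice from 6.39 through 6.94 to 7.59, without overlap. ChREBPβ-deficient mice ran from 7.09 through 7.42 to 7.59 and their WT mice from 6.77 through 7.34 to 7.63. Mxd1 was 2.41-fold higher in total ChREBP-KO mice, a log2 difference of 1.27 (SE 0.18, limma adjusted p = 1.84e-06). In ChREBPβ-deficient mice the difference was 0.01 (95% interval -0.33 to 0.36), and the effects differed by 1.25 (SE 0.25, limma adjusted p = 0.00053). The other Mxd1 probe, A_51_P388607 (chr6:86600751-86600810), was well above background on 30 arrays and differed by 0.20 in the total line (limma adjusted p = 0.0954).

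Mxd4, a repressor gene of the same family, was higher at both of its probes in total ChREBP-KO mice than in their WT mice. Those WT mice were the group of lowest mean at both probes. A_52_P230650 (chr5:34516836-34516895, minus strand) ran from 10.24 through 10.29 to 10.38 in total ChREBP-KO mice and from 9.95 through 10.02 to 10.21 in their WT mice, without overlap. The difference was 0.27 (SE 0.06, limma adjusted p = 0.000629). At A_51_P148865 it was 0.40 (SE 0.08, limma adjusted p = 0.000444). The effects exceeded those of the ChREBPβ line by 0.31 (limma adjusted p = 0.00688) and 0.50 (limma adjusted p = 0.00266). By mean, total ChREBP-KO mice exceeded ChREBPβ-line WT mice, the next group, by 0.10 at A_52_P230650 and 0.17 at A_51_P148865. Neither step exceeded the larger SD of the groups compared (0.13 and 0.18), and this difference was not tested. Total-line WT mice lay below ChREBPβ-deficient mice, the next group up, by 0.13 (larger SD 0.12) and 0.12 (larger SD 0.19). ChREBPβ-deficient mice differed by -0.05 and -0.10, and total-line WT mice lay below ChREBPβ-line WT mice by -0.17 (limma adjusted p = 0.0302) and -0.23 (limma adjusted p = 0.0487), calls that were lost in 7 and 19 of the 31 fits without 1 array.

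Mxi1 (MXD2), a further MAX-bound repressor, was higher by a small margin. Probe A_55_P2806788 (chr19:53447579-53447638, plus strand) ran from 10.56 through 10.64 to 10.82 in total ChREBP-KO mice and from 10.31 through 10.44 to 10.59 in their WT mice. The difference was 0.21 (SE 0.06, limma adjusted p = 0.0116), and in ChREBPβ-deficient mice it was 0.003. At A_55_P2728013 the difference was 0.22 (SE 0.08, limma adjusted p = 0.0366), made up of -0.03 within the first scan day and 0.49 within the second. This call was lost in 8 of the 31 fits that left out 1 array, where the adjusted p reached 0.0913.

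Mnt, the most widely expressed MAX-bound repressor, was not called in either line. ChREBPβ-deficient mice ran from 11.57 through 11.84 to 12.21 at probe A_52_P477431 (chr11:74658915-74658974), and their WT mice from 11.19 through 11.52 to 11.92. The difference of 0.40 (SE 0.09) had an unadjusted limma p of 0.000231 and an adjusted p of 0.671. Within scan days it was 0.40 and 0.45. In total ChREBP-KO mice it was 0.22 (SE 0.10, limma adjusted p = 0.0952), and total-line WT mice lay below ChREBPβ-line WT mice by -0.33 (limma adjusted p = 0.0148).

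Mga encodes a large protein that pairs with MAX and belongs to a Polycomb complex. Its 4 probes differed by -0.08 to 0.20 in total ChREBP-KO mice and by 0.01 to 0.20 in ChREBPβ-deficient mice. None was called, and the lowest adjusted p was 0.0844, at A_55_P2618975 in the total line.

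**Figure D3:**
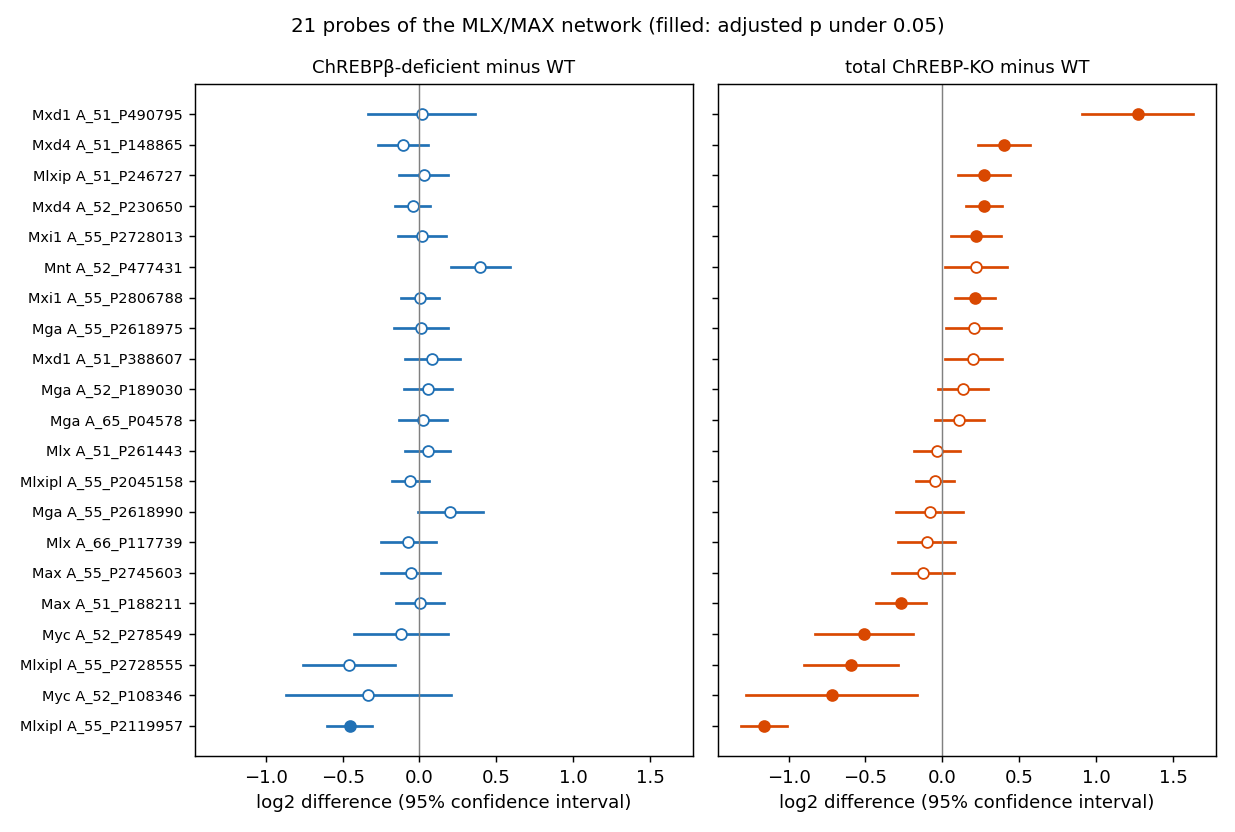
Log2 difference between KO and WT mice with its 95% interval for each of the 21 probes, in the total line and the ChREBPβ line. In the total line Mxd1 A_51_P490795 lies highest at 1.27 and the middle Mlxipl probe lowest at -1.16, and in the ChREBPβ line the middle Mlxipl probe, at -0.45, was the 1 probe called.

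By gene, with all arrays, 4 of the 10 were called higher in total ChREBP-KO mice (Mxd1, Mxd4, Mxi1 and Mlxip), 3 were called lower (Mlxipl, Max and Myc) and 3 were not called (Mlx, Mga and Mnt). Over all 23968 gene names the shares were 17.3% higher and 17.1% lower. A gene counts as called with 1 called probe, so more probes give more chances. The set held 21 probes for 10 genes, beside 36059 for 23968 gene names. Without Mlxipl, 18 probes remained, of which 6 were called higher and 3 lower in the total line. In the ChREBPβ line none of these 18 was called by limma, the lowest adjusted p was 0.671, and 1 had an unadjusted p under 0.05. The difference between the effects was called for 4 probes of the 21, 3 with the larger value in the total line and 1 with the smaller, against 15.1% of all probes (7.02% and 8.08% by direction), namely the middle Mlxipl probe, Mxd1 A_51_P490795 and both Mxd4 probes.

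**Figure D4:**
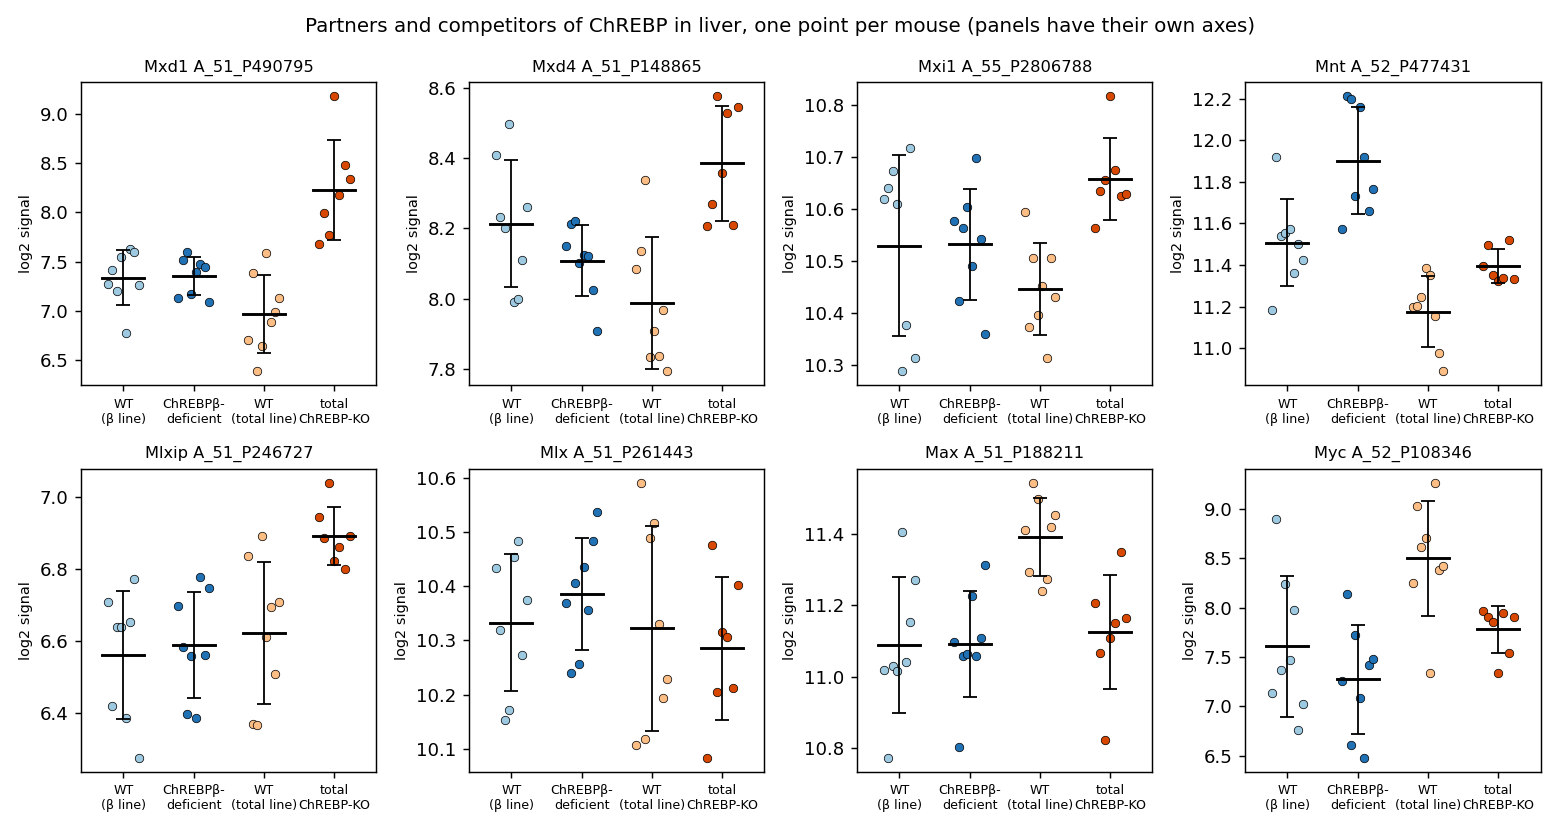
Log2 signal of probes of the partners and competitors of ChREBP in each array, by group, with points for mice and bars for the mean and SD. Every total ChREBP-KO mouse lies above every one of its WT mice for Mxd1 A_51_P490795, the groups overlap for Mxd4 A_51_P148865 (8.21 to 8.58 against 7.79 to 8.34), and for Max and Myc the WT mice of the total line lie above the other 3 groups by mean.

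The WT groups differed from each other at 6 of the 21 probes, 3 higher and 3 lower in the total line, against 17% of all probes (8.12% and 8.92% by direction). Higher were Max A_51_P188211 and both Myc probes, and lower were Mnt and both Mxd4 probes. With slide as a fixed block 1 of the 21 was called. In whole liver RNA the summed signal of 5 measured red blood cell marker genes of 8 was 17.52 to 18.56 in total ChREBP-KO and 17.82 to 18.36 in total-line WT mice, beside 16.90 to 17.61 in ChREBPβ-deficient mice and 16.50 to 17.57 in their WT mice. Of 12 exocrine pancreas genes 7 were measured, and their summed signal reached 14.46, 13.00 and 13.11 in total-line WT replicates 2, 7 and 8, beside at most 12.26 in all other arrays. Of these 7 genes 4 were called lower in the KO mice of the total line, against 17.1% of gene names. In its WT mice 4 were called higher than in ChREBPβ-line WT mice, against 9.93% of gene names.

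Without those 3 arrays 7 of the 21 probes were called in the total line, where 25.5% of all probes were called, beside 11 and 29.1% with all arrays. The probes no longer called were Mlxip (0.21, limma adjusted p = 0.0865), Mxi1 A_55_P2728013 (0.18, limma adjusted p = 0.129), Myc A_52_P108346 (-0.65, limma adjusted p = 0.138) and Myc A_52_P278549 (-0.47, limma adjusted p = 0.0611). The WT groups then differed at 2 probes, against 12.5% of all. All 8 hepatocyte markers were measured, with a summed signal between 20.77 and 20.92 on all arrays, of which 2 were called higher in total ChREBP-KO mice and 1 lower in total-line than in ChREBPβ-line WT mice. In total ChREBP-KO mice 1 of 5 red blood cell, 1 of 7 adipocyte, 1 of 6 stellate cell and 1 of 5 cholangiocyte markers were also called higher. The share of all gene names called higher there was 17.3%. Between the WT groups 3 of 5 red blood cell and 2 of 6 endothelial markers were called higher and 2 of 7 adipocyte markers lower in the total line. The shares of all gene names were 9.93% higher and 11.4% lower. No macrophage or lymphocyte marker was called by limma in any of the comparisons. The part of other cells in these results was not tested.

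Genes around the network were read from 8 lists, 118 genes in all, by their counts and medians. The lists were chosen with earlier results of these data known, so their counts are descriptions and not tests. Of 25 measured genes known as ChREBP or MondoA targets, 24 had a called lower signal in the KO mice of the total line and none a called higher one, against 17.1% and 17.3% of gene names, with a median difference of -2.06, and 24 differed in effect from the ChREBPβ line, all with the lower value in the total line, against 9.6% of gene names (8.82% in the other direction). Rgs16, a regulator of G protein signalling, fell by 6.37 on the log2 scale (limma adjusted p = 3.65e-10). Thrsp, a lipogenic factor, differed by -4.82, G6pc, the glucose-6-phosphatase catalytic subunit, by -4.79, and Pklr, the liver pyruvate kinase, by -3.99.

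MYC target genes were called in both directions. Of 23 measured, 8 were called lower and 3 higher in total ChREBP-KO mice, with a median of -0.11, where 17.1% and 17.3% of gene names were called. Tert, the telomerase catalytic subunit, differed by -0.54, Cad, a pyrimidine synthesis enzyme, by -0.49, Nop56, a small nucleolar ribonucleoprotein, by -0.40, and Odc1, which makes polyamines, by 0.35. In total-line WT mice 11 of the 23 were called higher than in ChREBPβ-line WT mice and none lower, against 9.93% and 11.4% of gene names. Nop56 was among them (0.48, limma adjusted p = 0.00705), and its mean was 9.16 in total ChREBP-KO mice and 9.08 in ChREBPβ-line WT mice. The effects of the lines differed by call at Tert (limma adjusted p = 0.00244). They did not at Cad (0.337), Nop56 (0.141) or Odc1 (0.0911).

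Counts of the cofactor lists in total ChREBP-KO mice stand beside 17.3% of gene names called higher and 17.1% called lower. The SIN3 corepressor list had 3 of 14 genes called higher, namely Ing1 (0.48), Sin3b (0.34) and Ing2 (0.23), and 1 lower, Rbbp7 (-0.31). The PRC1.6 partners of MGA had 1 of 12 called higher, Yaf2 (0.29), and 3 lower, namely Tfdp1 (-0.47), E2f6 (-0.29) and Rnf2 (-0.17). Of 12 MYC cofactors 1 was called higher and 4 lower, among the latter Kat2a (-0.26), Ep400 (-0.21) and Trrap (-0.20). The 1 called higher was Pim1, a kinase, which rose by 0.88. It was lower in total-line WT than in ChREBPβ-line WT mice by -1.27 (limma adjusted p = 4.43e-06). In the same comparison of WT groups Ing1 differed by -0.26 (limma adjusted p = 0.0184) and Tfdp1 by 0.25 (limma adjusted p = 0.00347). Rnf2 differed there by 0.30 (limma adjusted p = 0.000332) and Ep400 by 0.25 (limma adjusted p = 0.00797).

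Regulators and partners of the ChREBP protein had 4 of 22 genes called higher and 5 lower in total ChREBP-KO mice, with a median of 0.06, beside 17.3% and 17.1% of all gene names. The 4 of largest difference were all lower, namely Prkaa2, an AMPK catalytic subunit (-0.50), Nr1h4, the bile acid receptor FXR (-0.30, with 0.17 at another probe that was not called), Xpo1, the nuclear exporter (-0.30), and Ywhag, a 14-3-3 protein (-0.25). Of 9 other E-box factors 1 was called higher, Srebf2 (0.28), and 3 lower, namely Srebf1, the lipogenic SREBP-1 (-0.91), Mitf (-0.41) and Tfap4 (-0.35). Total-line WT mice exceeded ChREBPβ-line WT mice at Prkaa2 (0.35, limma adjusted p = 0.0392) and Mitf (0.40, limma adjusted p = 0.00934). The effects of the lines differed by call at Mitf (limma adjusted p = 0.00585) and not at Prkaa2 (limma adjusted p = 0.0737). When 1 array was left out, calls of genes named from the lists were lost. Among these were Nop56 (in 1 of 31 fits), Rbbp7 (in 2), Nr1h4 (in 3) and Srebf2 (in 9), each with its direction kept. No gene of any of the 8 lists was called in ChREBPβ-deficient mice, where 0.00417% of gene names were called lower and 0 higher.

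**Figure D5:**
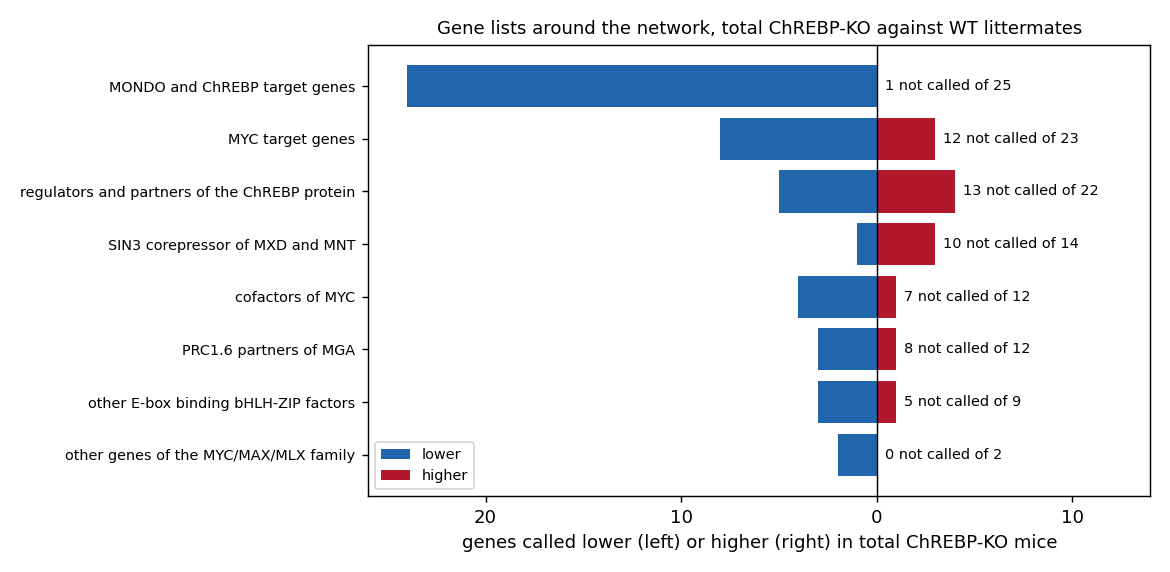
Number of measured genes called higher, called lower and not called in total ChREBP-KO mice against their WT mice, for each of the 8 gene lists. Of the ChREBP and MondoA targets 24 of 25 were called lower, in lists chosen with earlier results of these data known.

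Within groups, pairs of probes of 1 gene were correlated to unequal degrees over the 31 deviations from the group means. Pearson's r was 0.87 for the Myc probes, 0.65 for Max, 0.64 for Mlx, 0.54 for Mxd4, 0.42 for Mxd1 and 0.05 for Mxi1. It was 0.58 for the upstream and middle, 0.53 for the upstream and downstream and 0.36 for the middle and downstream Mlxipl probes, and -0.18 to 0.84 among the pairs of Mga probes. Among 17637 other gene symbols, the deviations most like those of the middle Mlxipl probe were of Hdac5 (r = 0.67, Spearman's rho = 0.69), Dhrs3 (r = 0.60), Kncn (r = 0.59), Gfod1 (r = 0.59) and Ccdc15 (r = 0.59). These arrays share slides and normalization, and the correlations are descriptions.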

How the data were processed

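Total RNA of liver was labelled with Cy3 and hybridised to Agilent SurePrint G3 mouse arrays. Intensity values were read by the authors with Agilent Feature Extraction 10.10.1.1, per the file headers, 1 deposited file per array. A deposited series table holds log2 values, made by the authors with limma from the median intensity without background subtraction, after a spot filter and quantile normalization.

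The same steps were repeated here from the scanner intensities with limma 3.58.1 in R 4.3.3. Spots of weight 1 on 26 or more arrays in all, or on 6 or more arrays within a group, were kept, which left 38721 of 59305 spots, and spots of 1 probe name were summarised by their median. Between 34131 and 38612 spots per array had weight 1, and arrays correlated at 0.980 to 0.999. The lowest and the highest percentile of the difference to the deposited table were -0.027 and 0.030. Intensities carry no counts, and the number of arrays, 31, limits the precision. One model over 4 groups gave the comparisons, with Benjamini-Hochberg adjustment over all 36059 probes. Within-array differences of Mlxipl probes were tested by exact permutation of mice. The model and permutation steps were tested on simulated data.

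All member probes are named. In each list up to 4 called genes with the largest difference in total ChREBP-KO mice are named, and 5 genes by likeness to the Mlxipl probe of highest mean. The 8 lists were ChREBP and MondoA targets, MYC targets, ChREBP regulators, MYC cofactors, SIN3, PRC1.6, E-box factors and the family. Marker lists of hepatocytes, exocrine pancreas, adipocytes, red blood cells, macrophages, lymphocytes, endothelium, stellate cells and cholangiocytes were read by sums. Members and lists were chosen with earlier results of these data known. The stretch length for probe sharing and the fit without arrays of high exocrine signal were chosen after seeing the data. Alternatives covered signal, scaling (75th percentile), normexp background (offset 50), filters, the deposited values, slide, scan day, replicate block, lines fitted alone, trended eBayes, an exact Mann-Whitney test and leaving out each array. Figures were drawn with matplotlib 3.10.9.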

Additional observations from a re-analysis of the deposited data

Results flagged for a closer look

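The effect of total ChREBP deficiency exceeded or fell short of that of ChREBPβ deficiency, by a limma test of the difference of the 2 effects, at 4 probes. These were Mlxipl A_55_P2119957 (-0.70), Mxd1 A_51_P490795 (1.25), Mxd4 A_51_P148865 (0.50) and Mxd4 A_52_P230650 (0.31).

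In 3 of 84 groups of probe values 1 mouse lay far from the rest by Dixon's criterion, which chance gives in about 1 of 20 groups. All 3 were ChREBPβ-deficient mice. Replicate 5 had 6.72 at Mga A_55_P2618990, where the nearest mouse had 6.0. Replicate 3 had 10.42 at Mxd4 A_52_P230650, where the nearest had 10.22. Replicate 2 had 5.95 at Myc A_52_P278549, where the nearest had 5.59.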

How the results depend on the processing

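The direction of every called difference of a member probe was the same under all alternatives run on the whole set of arrays or without some of them, which leaves aside values within 1 scan day (Mxi1 A_55_P2728013, 0.22 in total ChREBP-KO mice, was -0.03 within the first day), and the calls for Mxd1 A_51_P490795, both Mxd4 probes and the middle Mlxipl probe in total ChREBP-KO mice were kept in each that measured the probe. The limits are calls near the threshold. In ChREBPβ-deficient mice the count of called probes, 1, was 0 with slide as a fixed block and in lines fitted alone, and 0 to 1 when 1 array was left out. It was also 0 by the exact Mann-Whitney test, which says nothing of stability, since its smallest p with 8 mice a group (0.000155), reached by the 8 probes without overlap, could not pass the adjustment. In total ChREBP-KO mice the count of 11 became 7 without the 3 arrays of high exocrine signal, and 9 to 11 when 1 array was left out. Between the WT groups the count of 6 became 2 without those 3 arrays and 1 with slide as a fixed block. Causes were not tested. Mxd1 A_51_P388607, well above background on 30 of 31 arrays, was called with the median signal at the 75th percentile (0.33, limma adjusted p = 0.0371). The counts of the gene lists, 13 higher and 50 lower, ranged over 11 to 15 and 47 to 50 when 1 array was left out. Alternatives for the lists were added after seeing the data.

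With the replicate number as a block, 0 probes were called in ChREBPβ-deficient mice, the middle Mlxipl probe keeping its difference of -0.45 (limma adjusted p = 0.46), and Mnt was called higher in total ChREBP-KO mice by 0.23 (adjusted p = 0.0337). Whether the numbers pair the mice is not stated in the sources used here and was not settled by the correlations. The median correlation was -0.02 for same-numbered mice and -0.01 for others in the total line. In the ChREBPβ line it was 0.18 and -0.07. Same-numbered mice correlated at -0.21 to 0.24 in the total line, where 1 of 7 matched best with its own number, and at -0.16 to 0.53 in the ChREBPβ line, where 4 of 8 did.

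Differences close to 0 that were never called changed sign. The ChREBPβ-line difference between the upstream and middle Mlxipl probes (-0.003) was 0.048 with the processed signal, 0.067 with the median signal at the 75th percentile, 0.0064 after normexp, 0.025 in the deposited values and -0.058 to 0.066 when 1 array was left out. With slide as a fixed block, ChREBPβ-line differences became -0.033 for Max A_51_P188211, -0.076 for Mga A_55_P2618975, -0.021 for Mga A_65_P04578, -0.030 for Mlxip, -0.032 for Mxd1 A_51_P490795 and 0.0037 for Mxd4 A_52_P230650. Differences between the WT groups became -0.0077 for Mga A_52_P189030, -0.083 for Mga A_55_P2618975, 0.062 for Mlx A_51_P261443 and -0.069 for Mlxip, and the difference of the effects at Mlxipl A_55_P2045158 became -0.0044. With slide as a random block Max A_51_P188211 became -0.0027 and Mga A_55_P2618975 -0.0019 in the ChREBPβ line and -0.0018 between the WT groups. With scan day as a block Max A_51_P188211 became -0.0068 and Mxd1 A_51_P490795 -0.0055 in the ChREBPβ line. With the median signal at the 75th percentile Max A_51_P188211 became -0.0020 in the ChREBPβ line, Mga A_55_P2618990 0.026 in the total line and the difference of the effects at Mlx A_66_P117739 0.024. With probes measured on all arrays Max A_51_P188211 became -0.00051, and after normexp Mga A_65_P04578 became -0.00043. Without the 3 exocrine arrays the WT groups differed by -0.00058 at Mga A_52_P189030, -0.019 at Mga A_55_P2618975 and -0.013 at Mga A_65_P04578.

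When 1 array was left out, ChREBPβ-line differences ranged over -0.042 to 0.048 for Max A_51_P188211, -0.029 to 0.048 for Mga A_55_P2618975, -0.014 to 0.057 for Mlxip, -0.066 to 0.057 for Mxd1 A_51_P490795, -0.0077 to 0.052 for Mxi1 A_55_P2728013 and -0.032 to 0.029 for Mxi1 A_55_P2806788. Those between WT groups ranged over -0.010 to 0.060 for Mga A_52_P189030, -0.026 to 0.052 for Mga A_55_P2618975, -0.049 to 0.020 for Mlx A_51_P261443, -0.092 to 0.0064 for Mlx A_66_P117739 and -0.010 to 0.16 for Mlxipl A_55_P2728555. The difference of the effects ranged over -0.085 to 0.014 for Mlx A_66_P117739 and -0.024 to 0.047 for Mlxipl A_55_P2045158, and the total-line difference of Mlx A_51_P261443 over -0.068 to 0.0021.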
